A study of Bos taurus with 34 samples.

Results

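IL5RA (ENSBTAG00000000273) and HRH2 (ENSBTAG00000044071) are 2 of the 27570 genes counted in peripheral white blood cells (PWBCs) of beef heifers, and both passed the minimum abundance that 10942 genes reached, 2 CPM (counts scaled to the library total) or more in at least 5 libraries. They were picked for their CPM in the 3 pregnancy outcome groups over all 17 libraries, with those values known. Their differences between groups are therefore given as a description, without a test. IL5RA encodes the alpha chain of the interleukin-5 receptor, which binds the cytokine and pairs with the beta common chain (CSF2RB) that the receptors for IL-3 and GM-CSF also use. Through this receptor, interleukin-5 drives the production and survival of eosinophils, the granulocytes known for responses to parasites and for allergic inflammation. HRH2 encodes the histamine H2 receptor, which couples to the stimulatory G protein, raises cyclic AMP and is known to dampen the activity of several leukocytes, eosinophils and neutrophils among them.

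The blood was drawn from Angus-Simmental crossbred heifers, just past a year of age, on the day of artificial insemination (AI), before the outcome was known. All had gone through the same CO-Synch protocol with a progesterone insert, were inseminated with semen of 1 sire and were later exposed to bulls for natural breeding. There were 6 heifers pregnant to AI (AI-preg), 6 pregnant to natural breeding (NB-preg) and 5 that did not become pregnant (non-pregnant), each a separate animal with 1 PWBC library. PWBCs are a mixture of lymphocytes, monocytes and granulocytes left after red cells were lysed, so fewer cells of a type and less RNA per cell cannot be told apart.

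The libraries held 15353819 to 67192941 read pairs counted on genes in AI-preg, 6402207 to 56867279 in NB-preg and 4184999 to 20164587 in non-pregnant heifers. Their medians were 32535945, 19195350 and 8175887, so at median depth the same CPM rests on fewer read pairs in the non-pregnant group. The read pairs of a gene also follow its level: HRH2 had 1 to 373 in non-pregnant, 8 to 192 in AI-preg and 5 to 140 in NB-preg heifers. The label of the gene pair as eosinophil-linked could be checked against 1 eosinophil marker. Of 19 markers listed for eosinophils, GATA1, a transcription factor that the eosinophil lineage needs and that red cell and platelet precursors also use, is the one whose symbol could be tied to an identifier of the count table. The granule protein genes that define eosinophils, such as EPX and PRG2, were not analysed here. No gene lengths were used, so the levels of IL5RA and HRH2 were not compared with each other.

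IL5RA was highest in non-pregnant heifers and lowest in NB-preg heifers. In the non-pregnant group, it had 36.8 CPM in heifer 107, 22.4 in heifer 94, 21.2 in heifer 113, 15.2 in heifer 115 and 12.9 in heifer 101 (mean 21.7 ± 9.32, SD, n = 5). In AI-preg heifers, it ran from 5.04 CPM in heifer 120 through a median of 10.5 to 17.4 in heifer 92 (mean 11.2 ± 4.54, SD, n = 6). In NB-preg heifers, it ran from 3.73 CPM in heifer 121 through a median of 4.67 to 14.0 in heifer 103 (mean 6.28 ± 3.90, SD, n = 6). Heifers 107, 94 and 113 held the 3 highest levels of all 17, and the other 2 non-pregnant heifers lay within the range of the pregnant ones. Of the 12 pregnant heifers, 9 were below the lowest non-pregnant heifer. The lowest 5 NB-preg heifers, at 3.73 to 6.65 CPM, were below heifer 119, the second lowest of the AI-preg group at 8.25 CPM. These levels rest on 54 to 426 read pairs in non-pregnant, 197 to 739 in AI-preg and 32 to 312 in NB-preg heifers. For the shallowest library, non-pregnant heifer 101, the exact 95% binomial interval was 9.73 to 16.9 CPM, which covers counting error only.

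HRH2 spread further than IL5RA within the non-pregnant group, from the highest to the lowest level of the 17 heifers. In this group, it had 24.1 CPM in heifer 94, 14.1 in heifer 113, 13.1 in heifer 107, 3.36 in heifer 101 and 0.123 in heifer 115 (mean 10.95 ± 9.51, SD, n = 5). In AI-preg heifers, it ran from 0.322 CPM in heifer 119 through a median of 2.15 to 7.42 in heifer 92 (mean 2.67 ± 2.49, SD, n = 6). In NB-preg heifers, it ran from 0.782 CPM in heifer 116 through a median of 1.26 to 2.98 in heifer 111 (mean 1.55 ± 0.86, SD, n = 6). The 3 heifers with the most IL5RA, 94, 107 and 113, were also the 3 with the most HRH2, and all of them were above every pregnant heifer. Heifer 101 was above every NB-preg heifer and below AI-preg heifer 92. Its level rests on 14 read pairs, and the exact 95% interval, 1.84 to 5.63 CPM, covers the level of NB-preg heifer 111. The value of heifer 115 is a single read pair (exact 95% interval 0.00311 to 0.685 CPM), while its IL5RA level rests on 124 read pairs and ranked 5th. In the order of the group means, AI-preg and NB-preg are neighbours whose ranges overlapped in both genes, with 2 of 6 AI-preg heifers above all NB-preg heifers for IL5RA and 1 of 6 for HRH2.

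**Figure D1:**
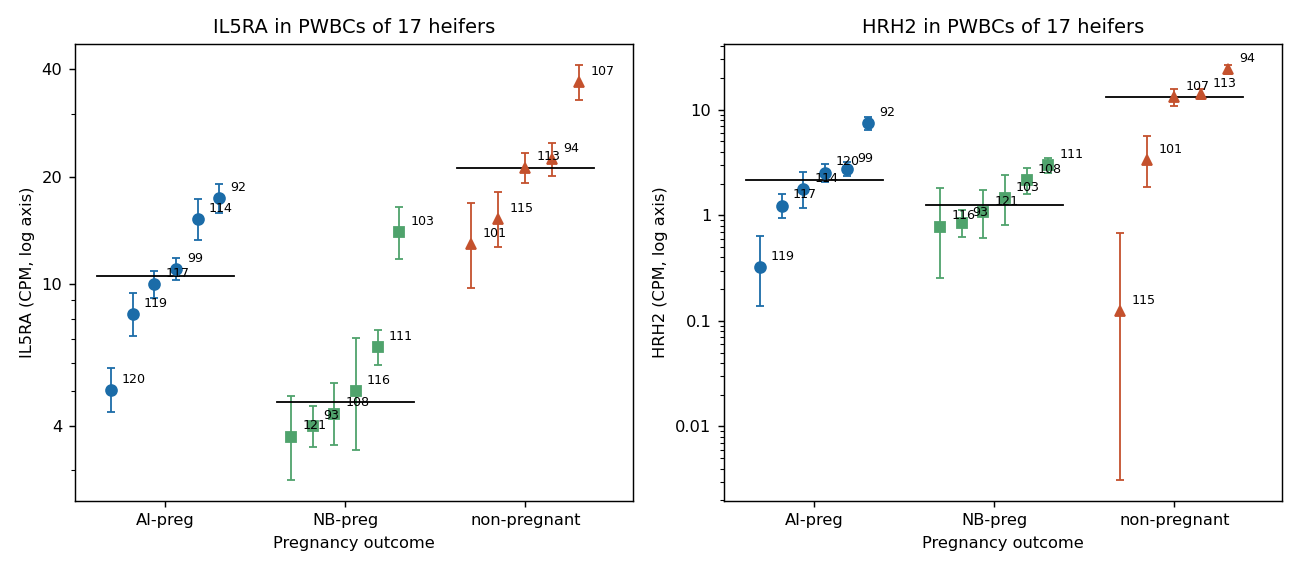
CPM of IL5RA (left) and HRH2 (right) in PWBCs of each heifer on log axes, by pregnancy outcome, where points are heifers labelled by number, bars are exact 95% binomial intervals and the black lines are group medians. Heifers 94, 107 and 113 lie above all pregnant heifers in both panels, and heifer 115 is the lowest of all for HRH2.

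As coefficients of the edgeR fit of the 3 groups, the level of IL5RA in non-pregnant heifers was 1.95-fold that in AI-preg heifers (log2 0.96) and 3.46-fold that in NB-preg heifers (log2 1.79). That of HRH2 was 4.10-fold (log2 2.04) and 7.04-fold (log2 2.81). Both comparisons share the same non-pregnant heifers. Between the pregnant groups, AI-preg was 1.78-fold NB-preg for IL5RA (log2 0.83) and 1.71-fold for HRH2 (log2 0.78). Single heifers moved these values: for AI-preg against NB-preg, the log2 difference in HRH2 fell to 0.15 without AI-preg heifer 92, and that in IL5RA rose to 1.23 without NB-preg heifer 103. Against AI-preg, the log2 difference of non-pregnant heifers in HRH2 was 1.53 without heifer 94. The ranges of non-pregnant and pregnant heifers overlapped for both genes. Among the genes tested, 0.064% had every non-pregnant heifer above every AI-preg heifer, and 0% had every one above every NB-preg heifer.

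A score of markers of neutrophils, the most abundant granulocytes of blood, was high in the same non-pregnant heifers as both genes. The neutrophil score was the mean log2(CPM + 1) of the 4 of 10 listed markers with an identifier, CXCR2, CSF3R, TREM1 and FCGR3A. It was 7.13 in heifer 94, 7.21 in heifer 107 and 7.76 in heifer 113, and 4.23 and 4.08 in heifers 101 and 115. The AI-preg heifers had scores of 2.15 to 5.57, and the NB-preg heifers of 3.20 to 5.54. The 3 heifers that stood above all pregnant ones in IL5RA and HRH2 were thus also above them in this score. How many of all genes share this order was not counted. The genes of the score did not all go alike. The log2 fold change against AI-preg was 4.23 for CSF3R, 3.27 for CXCR2, 1.83 for TREM1 and -0.05 for FCGR3A. NB-preg heifer 116, at 85.9 CPM of CXCR2, was above heifers 94 (65.1) and 107 (80.3) in this gene. When the score entered the fit as a covariate, the log2 difference in IL5RA was 0.20 against AI-preg and 1.15 against NB-preg, and that in HRH2 was -0.39, lower in non-pregnant heifers, against AI-preg and 0.51 against NB-preg. The identifiers of its markers came from the study's tables, part of which list genes that differed or changed coexpression with outcome. No other score was tried as a covariate. Whether neutrophil number or state has a part in the levels of either gene was not tested.

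**Figure D2:**
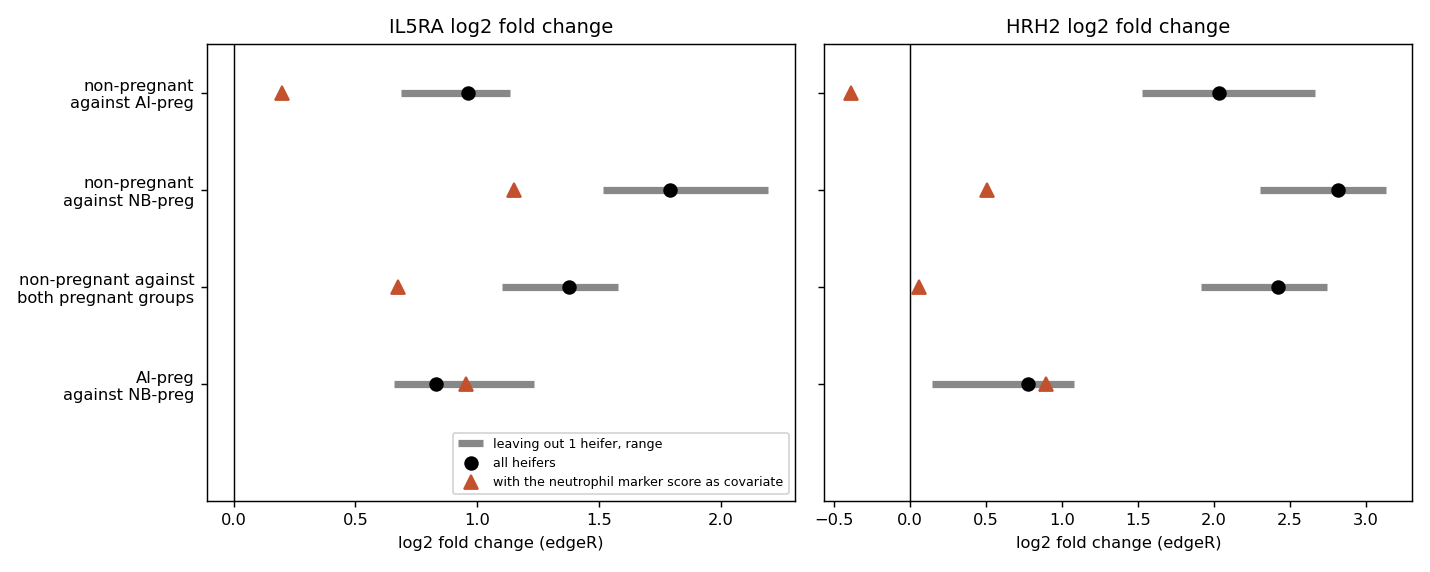
Log2 fold change of IL5RA (left) and HRH2 (right) in each comparison of outcome groups, from edgeR, with all heifers (black points), over fits that leave out 1 heifer (grey bars, lowest to highest) and with the neutrophil marker score as a covariate (triangles). With the covariate, the value against AI-preg is 0.20 for IL5RA and -0.39 for HRH2, and that against NB-preg is 1.15 for IL5RA and 0.51 for HRH2.

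Whether the 2 receptors rise and fall together was asked among heifers of the same outcome, with the mean of each group subtracted from log2(CPM + 1), since their selection fixed a shared difference between groups. Over 17 heifers, Pearson's r was 0.444 (permutation within groups, two-sided p = 0.0789, adjusted p = 0.109 over 11 relations) and Spearman's rho was 0.549 (permutation p = 0.0344, adjusted p = 0.0743). This relation did not pass the threshold. Without heifers 94 and 115, the farthest on HRH2, r was 0.478, and under TMM scaling it fell to 0.272 (permutation adjusted p = 0.492). Within the groups, r was 0.451 in AI-preg heifers (exact permutation p = 0.354, adjusted p = 0.512 over 26 relations) while NB-preg heifers had an r of 0.269 (exact permutation p = 0.639, adjusted p = 0.755), and the 5 non-pregnant heifers were too few for an r of their own. With group means kept, r was 0.647. The ranks of single heifers parted in both directions, since heifer 115 was 5th of 17 in IL5RA and 17th in HRH2, while NB-preg heifer 108 was 15th in IL5RA and 9th in HRH2.

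IL5RA followed GATA1 over the heifers. With group means removed, r was 0.782 (permutation p = 0.000410, adjusted p = 0.00451) and rho was 0.803 (permutation p = 0.000560, adjusted p = 0.00616), and r was 0.667 without heifers 103 and 114, the farthest on GATA1. Within AI-preg heifers, the r of IL5RA with GATA1 was 0.568 (exact permutation p = 0.271, adjusted p = 0.512). Within NB-preg heifers, it was 0.925 (exact permutation p = 0.0583, adjusted p = 0.512), so neither group passed the threshold. GATA1 was detected in few read pairs and fell into separate ranges. There were 33 to 88 read pairs in 5 heifers, and 14 or fewer in the other 12. The 5 were non-pregnant heifers 107 (7.85 CPM), 94 (5.68) and 113 (3.68), NB-preg heifer 103 (3.20) and AI-preg heifer 114 (2.94). GATA1 reached the minimum of 2 CPM in these 5 libraries alone, so it was analysed only because of the heifers where it is high. Heifer 103 was the highest of the NB-preg group in IL5RA and heifer 114 the second highest of the AI-preg group, at 15.2 CPM. In the other 12 heifers, GATA1 was at 0.387 CPM or less, and no read pair of it was counted in heifers 119, 116, 121 and 101, where 3 read pairs would be 0.121, 0.469, 0.200 and 0.719 CPM. Within these 12 heifers, a subset taken after the values were seen, r was 0.623 (permutation p = 0.0794) and rho was 0.609 (permutation p = 0.0761), which over fewer heifers did not pass the threshold. AI-preg heifer 92 and non-pregnant heifer 115, at 17.4 and 15.2 CPM of IL5RA, had 0.387 and 0.246 CPM of GATA1, so high IL5RA also occurred with little GATA1. GATA1 itself did not pass the test between groups, with a log2 fold change of 2.52 against AI-preg (adjusted p = 0.780, edgeR) and 2.65 against NB-preg (adjusted p = 0.778). HRH2 and GATA1 had an r of 0.569 (permutation p = 0.0743, adjusted p = 0.109) and a rho of 0.662 (permutation p = 0.0181, adjusted p = 0.0499), and r was 0.766 without heifers 103 and 114 but 0.438 without heifer 115. Within the 12 heifers with little GATA1, r was 0.270 (permutation p = 0.523) and rho 0.112 (permutation p = 0.815). Within AI-preg heifers, it was 0.0662 (exact permutation p = 0.829, adjusted p = 0.903), and within NB-preg heifers 0.0746 (exact permutation p = 0.850, adjusted p = 0.903).

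IL5RA passed the adjusted threshold with the neutrophil score and HRH2 with a B cell gene. IL5RA had an r of 0.640 with the neutrophil score (permutation p = 0.00777, adjusted p = 0.0285; rho 0.723, permutation p = 0.00320, adjusted p = 0.0117), which was 0.542 without heifers 101 and 115 (permutation p = 0.0637) and so rests in part on them. Its r with CD79A, a signalling chain of the B cell receptor, was 0.493 (permutation p = 0.0602, adjusted p = 0.109; rho 0.539). Among the 5 cell type scores, GATA1 included, HRH2 had its highest r with CD79A, 0.785 (permutation p = 0.00112, adjusted p = 0.00616; rho 0.706, permutation p = 0.00206, adjusted p = 0.0113). This fell to 0.476 without heifers 115 and 119, the lowest of all in CD79A, at a log2(CPM + 1) of 2.19 and 2.41 (permutation p = 0.0532). It fell to 0.615 without heifer 115 alone (permutation p adjusted over the family, 0.0586). The relation thus rests on heifers 115 and 119. An r this high was common for HRH2. With group means kept, that with CD79A was 0.771 and ranked 758th among the genes kept. The r of HRH2 was 0.673 with the neutrophil score (permutation p = 0.0234, adjusted p = 0.0515; rho 0.576) and 0.276 without heifers 101 and 115. With NKG7, a granule gene of NK cells, it was 0.741 (permutation p = 0.0196, adjusted p = 0.0515; rho 0.547) and 0.346 without heifers 94 and 115. Within AI-preg heifers, the r of HRH2 was 0.429 with the neutrophil score and 0.374 with NKG7. Within NB-preg heifers, these were 0.0391 and -0.469, so the sign for NKG7 was reversed there. The platelet score, of ITGA2B and TUBB1, had an r of 0.235 with IL5RA (permutation p = 0.411, adjusted p = 0.452) and -0.0633 with HRH2 (permutation p = 0.831, adjusted p = 0.831). Its 2 genes went different ways with group means removed, since ITGA2B, an integrin of platelets, had an r of 0.698 with IL5RA and 0.772 with HRH2, and TUBB1, a tubulin of platelets, had -0.159 and -0.487. Whether these correlations differ between the receptors was not tested.

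HRH2 also followed the main axis of variation of the whole transcriptome. The first principal component of log2(CPM + 1), computed without IL5RA and HRH2, held 45.4% of the variance. Heifers 113, 94 and 107, which led both receptors and the neutrophil score, were at its upper end (115, 103 and 81.2). The highest pregnant heifer on it was heifer 108, at 69.6. Heifers 115 and 119 were at its lower end (-136 and -117). The study also reports that some of its non-pregnant samples clustered apart by protein-coding genes. With group means removed, HRH2 had an r of 0.836 with this component (permutation p = 0.000840, adjusted p = 0.00336 over 4 relations added after the data were seen; rho 0.770, adjusted p = 0.00344), and of 0.592 without heifers 115 and 119 (permutation p = 0.0259). IL5RA had an r of 0.552 (permutation p = 0.0296, adjusted p = 0.0593; rho 0.539), and of 0.583 without the same 2 heifers. Such a place on the axis was common, since 21.9% of the genes kept had a larger |r| with the component than HRH2 and 55.3% a larger one than IL5RA, group means kept. The library total went with neither gene past the threshold, with an r of -0.144 for IL5RA (permutation p = 0.624) and 0.321 for HRH2 (permutation p = 0.194).

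**Figure D3:**
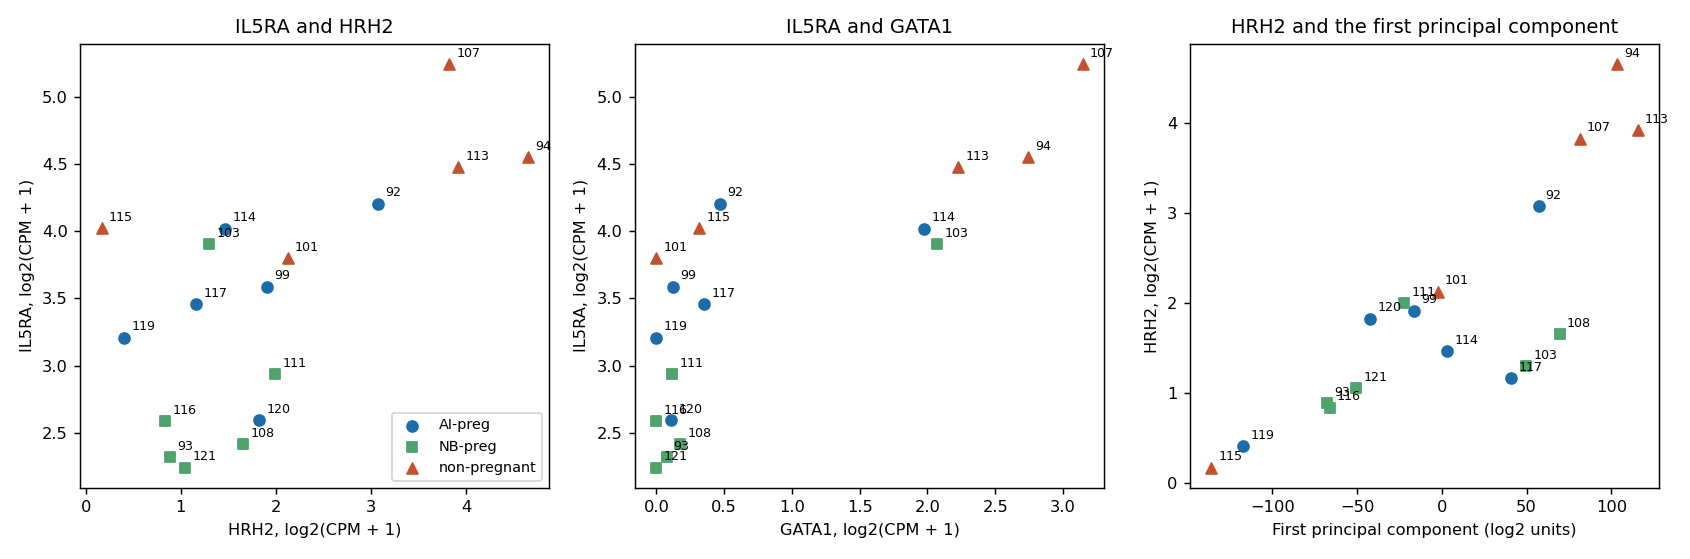
Each point is 1 heifer, labelled by number, with log2(CPM + 1) of IL5RA against HRH2 (left), of IL5RA against GATA1 (middle) and of HRH2 against the first principal component of the other genes (right), and colours and symbols mark the outcome groups. Heifer 115 is apart in the left panel, with IL5RA at 15.2 CPM and 1 read pair of HRH2, and the 5 heifers with more GATA1 stand at the right of the middle panel.

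The genes whose pattern was most like each receptor were taken by Pearson's r of log2(CPM + 1) over the 17 heifers, group means kept. As they were chosen by this r, it is a description without a test. The 10 highest for IL5RA were ENSBTAG00000038422 (r = 0.839), R3HDM4 (0.813), SERINC2 (0.801), LSP1 (0.795), GATA1 (0.786), RPL28 (0.782), ENSBTAG00000006982 (0.779), MSRB1 (0.770), COTL1 (0.765) and ENSBTAG00000053177 (0.763). LSP1 and COTL1 encode actin-binding proteins of leukocytes, MSRB1 a selenoprotein that reduces oxidized methionine, and RPL28 a ribosomal protein. Reads with several alignments were left out, so any that RPL28 shares with pseudogene copies would be missing from its count. GATA1 was thus 5th of all genes kept and the highest of the listed genes. At the other end, CCDC82 had an r of -0.836 with IL5RA, and the lowest, ENSBTAG00000016004, one of -0.853. COTL1 had mean levels of 822 CPM in non-pregnant, 420 in AI-preg and 387 in NB-preg heifers, and CCDC82 of 173, 306 and 315 CPM.

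For HRH2, the 10 highest were ENSBTAG00000000786 (r = 0.930), B3GNT3 (0.918), ENSBTAG00000023417 (0.912), ENSBTAG00000055281 (0.910), ENSBTAG00000053721 (0.910), MOCS1 (0.910), DTX1 (0.909), MAD2L2 (0.903), ENSBTAG00000011135 (0.900) and ZNF526 (0.899). B3GNT3 encodes a glycosyltransferase, MOCS1 an enzyme of molybdenum cofactor synthesis, DTX1 a ubiquitin ligase of the Notch pathway and MAD2L2 a subunit of a DNA polymerase used at lesions. No gene was among the 10 highest of both receptors. The lowest for HRH2 was ENSBTAG00000007479 (r = -0.949). HRH2 had many more genes with a like pattern than IL5RA: 443 genes had an r over 0.8 with HRH2 and 337 an r under -0.8, against 3 and 7 for IL5RA. The median |r| over all genes was 0.499 for HRH2 and 0.336 for IL5RA. The points of these correlations share libraries, depth and the axis of variation described above.

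**Figure D4:**
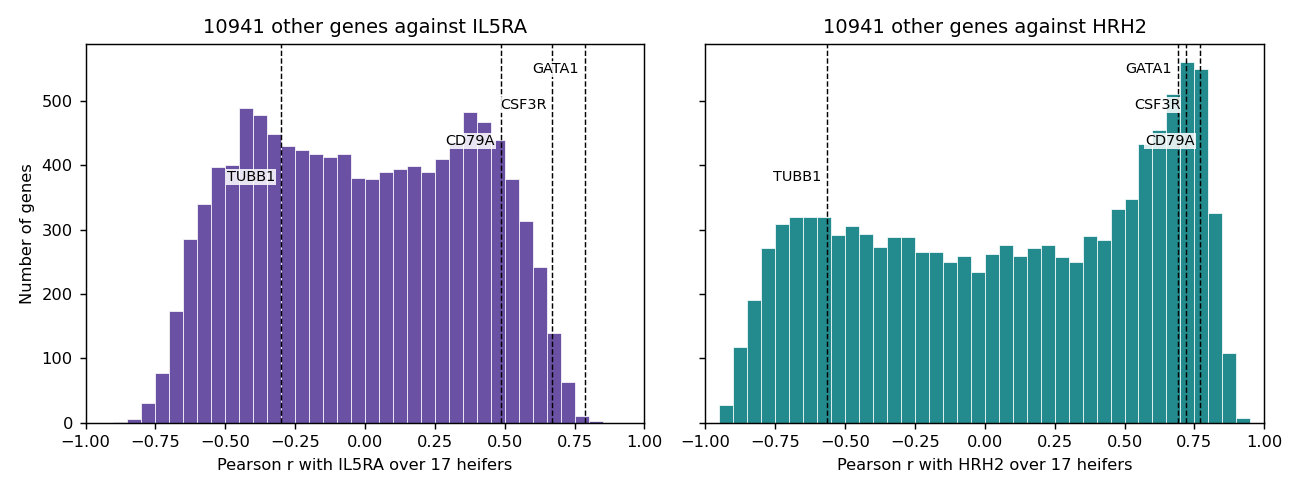
Number of genes (bars, 0.05 wide) by Pearson's r of log2(CPM + 1) with IL5RA (left) and HRH2 (right) over 17 heifers, with dashed lines at GATA1, CSF3R, CD79A and TUBB1. GATA1 is near the upper end for IL5RA, at 0.786, and inside the main body for HRH2, at 0.690.

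The partners of the receptors were looked for next, among 132 genes on lists of their pathways and of blood cell types. After the 2 receptors were left out, 19 had an identifier and passed the minimum. Of these, 6 are in a table of genes that the study lists as differing between outcome groups, so their count is not independent evidence. The other identifiers come from the study's tables of coexpressed genes, part of which were picked for coexpression that changed with outcome. The shares of all genes given below are therefore not a matched background for the 19. With edgeR's quasi-likelihood test and Benjamini-Hochberg adjustment over all genes, 0 of the 19 were called in any of the 4 comparisons, beside 0% of all genes. At an unadjusted p under 0.05, 7 of 19 were below it for non-pregnant against AI-preg (5.35% of all genes), 6 against NB-preg (6.14%), 11 against the mean of both pregnant groups (9.01%) and 0 for AI-preg against NB-preg (0.146%). With adjusted p-values, DESeq2 called 1 of them against AI-preg and 1 against NB-preg, CSF3R each time. The likelihood ratio test of edgeR called 0 in these comparisons. The shares of all genes that these tests called with adjusted p-values were not counted. As a first step, the study took genes whose unadjusted p was 0.03 or less by DESeq2 as well as by edgeR. This step, with edgeR's likelihood ratio test, is the nominal rule below, and the later step of the study, which kept genes that passed with each heifer left out, was not applied here. It named 6 of 19 as higher in non-pregnant than in AI-preg heifers (2.6% of all genes), 5 of 19 as higher than in NB-preg heifers (2.72%) and 8 of 19 as higher than the mean of both pregnant groups (4.91%). It named 0 as lower, where the shares of all genes were 0.695%, 1.24% and 1.37%, and 0 in either direction between AI-preg and NB-preg (0.128%). The median log2 fold change of the 19 was 1.54 against AI-preg and 1.41 against NB-preg, where that of all genes was -0.15 and -0.05.

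Close to the interleukin-5 receptor itself, CSF2RA, the alpha chain of the GM-CSF receptor that uses the same beta chain, had 0.369 to 11.5 CPM in non-pregnant heifers (median 8.87), where AI-preg heifers had 0.402 to 4.58 CPM and NB-preg heifers 0.133 to 6.11 CPM. Its log2 fold change was 1.54 against AI-preg and 1.78 against NB-preg. It met the nominal rule in neither comparison, but did so against the mean of both pregnant groups. The ligands IL5, IL3 and CSF2 and the beta chain CSF2RB were not analysed here. SDCBP encodes syntenin, an adaptor that binds the tail of the interleukin-5 receptor alpha chain. It met the nominal rule in both comparisons, with a log2 fold change of 1.74 against AI-preg and 1.93 against NB-preg, and ran from 28.8 to 389 CPM in non-pregnant, 22.4 to 116 in AI-preg and 6.80 to 121 in NB-preg heifers. LYN, a kinase that the receptor activates, had a log2 fold change of 0.11 and -0.28, and PIM1, a kinase gene that cytokine receptors induce through STAT5, one of 0.32 and 0.10. With group means removed, the r with IL5RA was 0.538 for CSF2RA, 0.388 for SDCBP, 0.249 for LYN and 0.649 for PIM1.

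On the side of histamine, none of the other receptors or enzymes of the list had an identifier, while 6 of 20 genes of H2 receptor signalling did. CREM, a transcription factor that cyclic AMP acts on, and RGS2, which limits signalling by G proteins, met the nominal rule in both comparisons. CREM had a log2 fold change of 1.86 against AI-preg and 1.41 against NB-preg, and RGS2 of 2.45 and 2.13. Among heifers of the same outcome, however, the r of CREM with HRH2 was -0.149 and that of RGS2 was 0.0859. The highest CREM and RGS2 levels among pregnant heifers were those of NB-preg heifer 116, at 84.1 and 166 CPM, where HRH2 had 5 read pairs. ARRB2, the arrestin that uncouples and internalizes such receptors, had an r of 0.840 with HRH2, and GRK6, a kinase that prepares receptors for arrestin, one of 0.757. Such values were common for HRH2. By r with group means kept, ARRB2 ranked 435th and GRK6 1341st among the genes kept. ARRB2 had a log2 fold change of 1.71 and 1.61, GRK6 of 0.96 and 0.69 and GRK2, a related kinase, of 0.63 and 1.13. None of these values met the nominal rule, which ARRB2 did meet against the mean of both pregnant groups. ADCY7, an adenylyl cyclase of blood cells, had negative values in both comparisons, at -0.75 and -0.77, also without meeting the rule.

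Of the cell type markers, the neutrophil genes CSF3R, the receptor for G-CSF, and TREM1, an activating receptor, met the nominal rule in both comparisons, and CXCR2, a chemokine receptor, against AI-preg. CSF3R had a log2 fold change of 4.23 against AI-preg and 4.17 against NB-preg, with a median of 636 CPM in non-pregnant, 15.2 in AI-preg and 35.2 in NB-preg heifers. TREM1 had 1.83 and 2.0, CXCR2 had 3.27 and 1.70, and FCGR3A, an Fc receptor, -0.05 (0.22 with edgeR's RLE factors) and 0.41. CD79A, NKG7, ITGA2B and TUBB1 met the rule in neither comparison, though ITGA2B met it against the mean of both pregnant groups. Of the platelet genes, ITGA2B was at 2.04 and 1.83 and TUBB1 at -1.10 and -0.86, while CD79A was at 1.17 and 1.37 and NKG7 at 0.70 and 0.35.

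**Figure D5:**
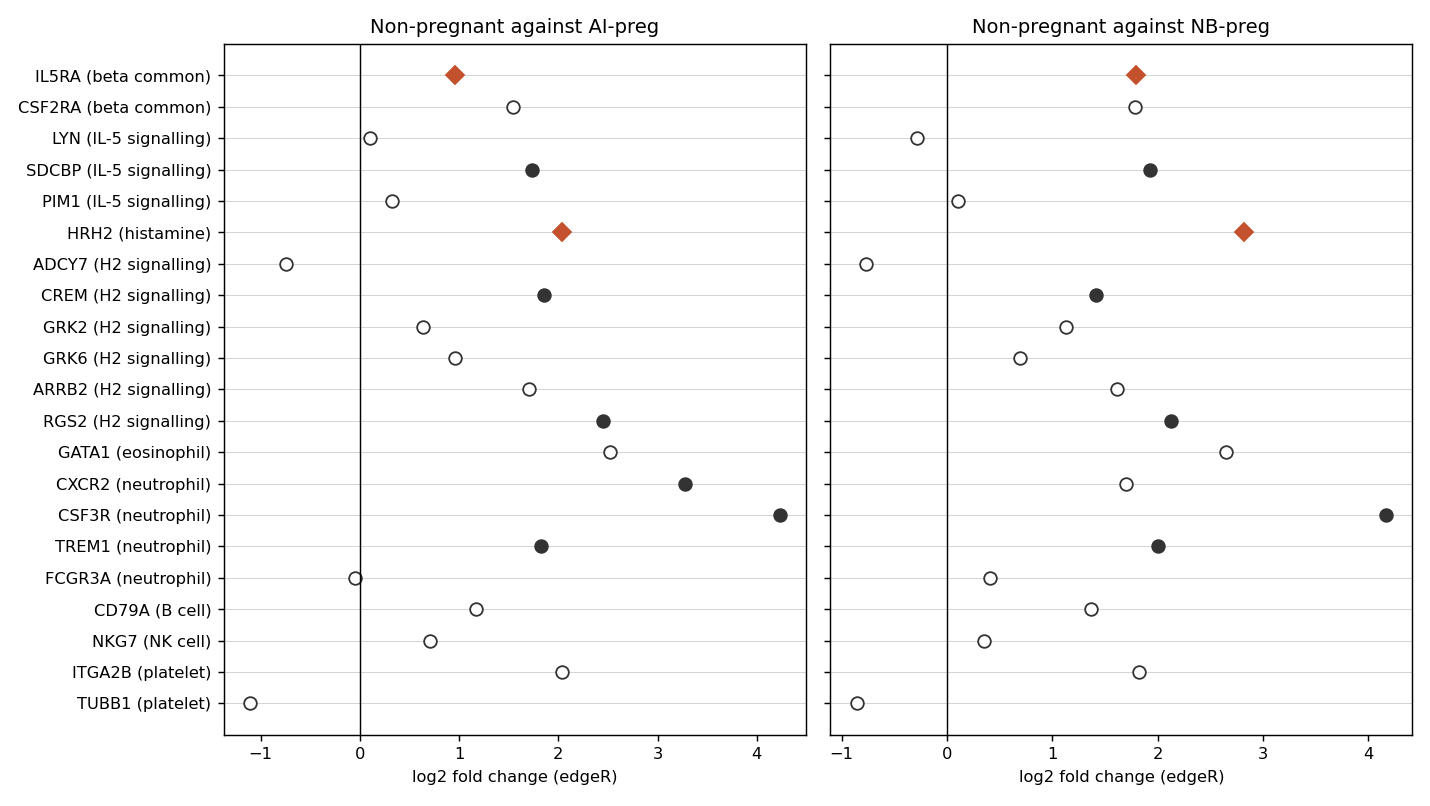
Log2 fold change from edgeR of IL5RA and HRH2 (diamonds) and of the 19 listed genes (circles, with the list in parentheses) for non-pregnant against AI-preg (left) and against NB-preg heifers (right), where filled circles met the nominal rule (0.03 in both tests). CSF3R is at 4.23 and 4.17, and ADCY7 and TUBB1 are below 0 on both sides.

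Small RNA sequenced from plasma of these heifers held no trace of IL5RA, with 0 reads in all 17 heifers, and 3 reads of HRH2, all in non-pregnant heifer 115. The plasma libraries were made for short RNA, so this gives no measure of either mRNA.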

How the data were processed

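The authors aligned mRNA reads of PWBCs from 17 heifers with HISAT2 2.1.0 to the bovine assembly ARS-UCD1.2, left out duplicates and reads with several alignments, and counted read pairs by strand with featureCounts, in version 1.6.0 by the submitters' processing notes and a later one in the study's code. They deposited these as counts per gene, without normalization or a filter, and plasma small RNA reads as counts in a second table. Depth per library is given with the results and limits the genes with few read pairs. The study left out the library of 1 further non-pregnant heifer for its low yield.

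IL5RA, HRH2 and all lists were chosen with earlier results of these data known. Symbols came from the study's supplementary tables, which cover 2305 of the 10942 genes kept (2 CPM or more in at least 5 libraries). Genes may be named if they are on the pathway or marker lists, or among the 10 highest or 5 lowest by r with a receptor. Apart from CSF3R and CXCR2, the other receptors in the closing section fall outside this rule, and all were chosen with results known. Library totals over the genes kept gave CPM, with no further factors. The 3 groups were fitted together in edgeR 4.0.16 (quasi-likelihood, robust, Benjamini-Hochberg) under R 4.3.3. The second call rule used DESeq2 1.42.0 and the likelihood ratio test of edgeR. Correlations used log2(CPM + 1), 100000 permutations within groups, two-sided, in Python 3.11.15 with scipy 1.17.1, and exact permutation within groups of 6. The fits and the correlation test were tested on simulated data. Columns of fold changes and p-values in the study's tables were not used. Of the marker lists, those of basophils and mast cells, monocytes, T cells and red cells had 0 genes with an identifier. The B cell list was left with CD79A, since 1 further gene of it is not reported here; this change was made with results known.

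The alternatives were edgeR's TMM and RLE factors, other filters (none but a count above 0, or 10 CPM), DESeq2, a difference of mean log2(CPM + 1), a pseudocount of 0.25, the neutrophil score as a covariate and leaving out single heifers. The subset of heifers with under 20 GATA1 read pairs and the relations with the first principal component and the library total were added after the data were seen.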

Additional observations from a re-analysis of the deposited data

Results flagged for a closer look

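A heifer was set apart in 12 of 63 groups of values, 1 for each gene and outcome group, because its distance to the nearest other heifer was too large a share of the group's range. A chance rate of about 1 in 20 groups holds for values with a normal spread, while CPM were used here untransformed. Each heifer set apart was the highest of its group, and groups of the same heifers are not independent. The 12 groups are therefore not read as an excess. For the receptors, these were IL5RA in NB-preg heifer 103, at 14.0 CPM with the next at 6.65, and HRH2 in AI-preg heifer 92, at 7.42 CPM with the next at 2.76. Heifer 103 was also set apart in GATA1, at 3.20 CPM with the next at 0.129.

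AI-preg heifer 114 and NB-preg heifer 116 account for most of the others. Heifer 114 had 34.3 CPM of CREM, 122.6 of RGS2, 2.94 of GATA1, 29.0 of CXCR2 and 122.7 of CSF3R, and heifer 116 had 84.1 CPM of CREM, 166 of RGS2 and 85.9 of CXCR2, each the highest of its group. IL5RA was at 15.2 CPM in heifer 114 and at 5.00 in heifer 116, and HRH2 at 1.76 and 0.782. Non-pregnant heifer 115, the lowest of all in HRH2, was set apart in TUBB1, at 1530 CPM with the next at 418.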

How the results depend on the processing

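With the neutrophil score as a covariate, the log2 difference between non-pregnant heifers and AI-preg, NB-preg or the mean of both pregnant groups was 0.20, 1.15 and 0.68 for IL5RA and -0.39, 0.51 and 0.061 for HRH2. As a difference of mean log2(CPM + 1), HRH2 against NB-preg was 1.65. The cause of these shifts was not tested. The other alternatives kept the direction of every fold change of both genes, leaving out heifers included. RLE factors moved the median log2 fold change of all genes from -0.15 to 0.16 against AI-preg and from -0.05 to 0.13 against NB-preg. HRH2 gave no value at 10 CPM, which it did not reach in 5 libraries.

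Of the 19 listed genes, DESeq2 called 1 against AI-preg, 1 against NB-preg and 1 against the mean of both groups. The likelihood ratio test called 1 against that mean, and the nominal rule named 6, 5 and 8. For DESeq2 and the likelihood ratio test, the share of all genes called was not counted. Edge cases among the correlations were those of HRH2: with a pseudocount of 0.25, r passed the threshold for the neutrophil score (0.666, permutation adjusted p = 0.0394) and the NK cell score (0.732, permutation adjusted p = 0.0464), and r with the platelet score was 0.0203. Without the 2 farthest heifers, r was 0.542 for IL5RA and the neutrophil score, 0.476 for HRH2 and CD79A and 0.766 for HRH2 and GATA1. Over the 12 heifers with little GATA1, its r with IL5RA was 0.623.

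With each heifer left out, r of IL5RA ran from 0.589 (without heifer 101) to 0.696 with the neutrophil score and from -0.0779 (without heifer 103) to 0.407 with the platelet score. That with CD79A ran from 0.437 to 0.591 and passed the threshold without heifer 108. That with the neutrophil score lost its call without heifer 101 or 115 (0.630). For HRH2, r ran from 0.551 to 0.748 with the neutrophil score, from 0.615 to 0.847 with CD79A, from 0.473 to 0.804 with the NK cell score and from -0.175 to 0.115 with the platelet score. The lowest of the first 3 were without heifer 115. Without heifer 115, CD79A lost its call. The neutrophil score passed the threshold without heifer 108, 114 or 116, and the NK cell score without heifer 108, 111, 116, 117, 120 or 121. No paired analysis was possible because the groups compared hold different heifers and share no number. Single read pairs limit HRH2 and GATA1 in the shallow libraries.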

Other observations

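Other receptors of the same kinds were picked by name, after results of these data were known, from those with a symbol, so they are given without a test. Of 10 other cytokine receptors, 9 had a positive log2 fold change in non-pregnant heifers against both AI-preg and NB-preg, with medians of 1.41 and 1.68. The medians of all genes were -0.15 and -0.05, and the share of all genes with a positive value was not counted. CSF3R, one of the 10, is also among the 19 listed genes above. TNFRSF1A, a receptor for TNF, was at 2.17 and 2.47, IL17RA, a receptor chain for IL-17, at 2.19 and 2.07 and IFNGR2, a chain of the interferon gamma receptor, at 1.49 and 1.82. The exception was TNFRSF17, the BCMA receptor of plasma cells, at -1.41 and -2.11. TNFRSF17 also had the lowest r with IL5RA of the named receptors, at -0.73 (rho -0.79) over 17 heifers with group means kept, against -0.36 with HRH2.

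Of 14 other G protein-coupled receptors, 10 had a positive log2 fold change against AI-preg, with a median of 1.21, and the median against NB-preg was 0.50. The 10 include CXCR2, which is also among the 19 listed genes, and the chemokine receptor CCR4 at 0.0019. C5AR1, the receptor for complement C5a, was at 2.51 and 1.48, and PTAFR, the receptor for platelet-activating factor, at 1.56 and 1.40. With group means removed, the r of these 2 with HRH2 was 0.0661 and 0.0123, and with IL5RA 0.378 and 0.567. ADORA2A, the adenosine receptor that raises cyclic AMP as HRH2 does, had an r of 0.758 with IL5RA and 0.561 with HRH2, and ADGRE3, an adhesion receptor of myeloid cells, 0.726 and 0.348. GPR183, a receptor for oxysterols, had negative log2 fold changes in both comparisons, at -0.76 and -0.49, as did LPAR6, a lysophosphatidic acid receptor, at -1.13 and -1.05. GPR171, at -0.19 and -0.10, turned to 0.13 and 0.14 with edgeR's RLE factors.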
